A study of Bos taurus with 38 samples.

Results

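Complex I, or NADH dehydrogenase, is the entry point of electrons from NADH into the mitochondrial respiratory chain. The genes described here are the 7 of its subunits that cattle mitochondrial DNA encodes, ND1, ND2, ND3, ND4, ND4L, ND5 and ND6, out of 27607 gene identifiers counted in each table. They were chosen by name, with earlier results of these data known, and each was found in the oocyte table and in the cumulus table. The libraries came from 19 cumulus-oocyte complexes of cattle (Bos taurus), aspirated from antral follicles of abattoir ovaries and stained with brilliant cresyl blue (BCB), a dye that marks whether an oocyte has completed its growth. The ooplasm was blue in the 9 BCB positive complexes and had no blue colour in the 10 BCB negative complexes. Each complex gave 1 library of the single oocyte and 1 of the cumulus cells around it, separated with trypsin and pipetting, which makes 38 libraries. After separation the oocytes were washed in drops of buffered saline with albumin before freezing, and the cumulus cells were collected and frozen without such a wash. The labels name no animal, so complexes may share one, and the p-values below measure the spread between complexes.

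The rest of complex I is encoded in the nucleus and imported. ND1 lies where the membrane arm meets the quinone site. ND2, ND4 and ND5 resemble ion antiporters and carry protons across the inner membrane. ND3, ND4L and ND6 are small membrane subunits that lie between ND1 and ND2. Mitochondrial DNA is transcribed as long messages from both strands, which are then cut mostly at transfer RNAs, and most of the cut messages are given poly(A) tails. Whether the ND6 message carried such a tail was not tested. ND6 is the single protein-coding gene read from the light strand, and the other 6 members lie on the heavy strand. ND4L and ND4 stay together in 1 mature message and their reading frames overlap. In the RefSeq gene order of cattle, ND4L is directly followed by ND4 and ND5 by ND6, while ND1, ND2 and ND3 are flanked by transfer RNA genes on both sides. The tagmentation kit does not mark strand, so reads of ND6 and reads of heavy-strand RNA across it cannot be told apart, and reads where ND4L meets ND4 or ND5 meets ND6 may be split or dropped by the counting. The identifiers are ENSBTAG00000043558 (ND1), ENSBTAG00000043571 (ND2), ENSBTAG00000043568 (ND3), ENSBTAG00000043577 (ND4), ENSBTAG00000043559 (ND4L), ENSBTAG00000043563 (ND5) and ENSBTAG00000043546 (ND6). Their lengths were not used here, so no abundance is compared between one gene and another except as a ratio followed across libraries.

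Library totals ran from 8886070 to 29810354 counts in oocytes and from 1103200 to 10430148 counts in cumulus cells. Cumulus totals were higher in the BCB positive class, with a median of 5853816 counts against 2252271, a difference of 0.37 on the log10 scale (two-sided exact permutation p = 0.00375). Within complexes 65 to 74, where 6 BCB positive and 3 BCB negative complexes carry neighbouring numbers, the difference was 0.73 (exact permutation p = 0.0119, the lowest value 84 splits can give). Oocyte totals did not pass (exact permutation p = 0.309). Abundance is given in CPM, a gene's counts scaled to a common library total. All 8 cumulus and granulosa markers summed to at least 2175 CPM in every cumulus library, and the oocyte markers ZP2 and ZP3 to at least 2713 CPM in every oocyte. The other 7 oocyte markers had no paired identifier. In oocytes the 8 cumulus markers summed to between 4.10 and 2363 CPM in the BCB positive class and between 4.69 and 518 CPM in the BCB negative class. The markers also moved with the class in cumulus cells. There the 8 cumulus markers had a median sum of 14200.0 CPM in the BCB positive and 7794 CPM in the BCB negative class, and ZP2 with ZP3 reached at most 1.37 and 65.3 CPM. VWF, the endothelial marker with an identifier, reached at most 5.82 and 16.3 CPM and COL1A2, the stromal one, 0.942 and 19.0 CPM, both highest in complex 68, which was also the highest for the 7 subunits. Every oocyte library held both transcripts too, VWF at 14.96 to 82.9 CPM and COL1A2 at 4.89 to 17.6 CPM. The part of these markers in the subunit values was not tested.

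In cumulus cells all 7 subunits were less abundant in BCB positive than in BCB negative complexes, by 8.34-fold for ND4 to 10.3-fold for ND3 in the fit with TMM factors, which scale the libraries so that most genes show no change. The size depended on the scaling, with log2 fold changes of -3.06 to -3.37 in that fit, -2.35 to -2.64 with library totals alone, the scale of CPM, -0.82 to -1.14 in raw counts without scaling and -1.03 to -1.39 with the log10 total in the fit. ND1, next to the quinone site, lay between 570.0 and 1946 CPM with a median of 792 in the BCB positive class and between 416 and 13686 CPM with a median of 4349 in the BCB negative class. Of the 10 BCB negative libraries, 8 stood above every BCB positive library, and this held for each of the 7 genes. The others were complex 88, which lay within the BCB positive range for all 7 genes, and complex 89, which lay within it for 5 genes and below it for ND1 and ND2.

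Among the antiporter-like subunits, ND2 lay between 719 and 3037 CPM with a median of 942 in the BCB positive class and between 600.1 and 15826 CPM with a median of 6149 in the BCB negative class. ND4 lay between 1345 and 4479 CPM with a median of 1805 in the BCB positive class and between 1462 and 29469 CPM with a median of 10477 in the BCB negative class. ND5 lay between 750.3 and 2687 CPM with a median of 1117 in the BCB positive class and between 1144 and 16745 CPM with a median of 8381 in the BCB negative class. The same libraries set the extremes each time: the highest BCB positive value was that of complex 73, and the highest and lowest BCB negative values were those of complexes 68 and 89. Among the small subunits, ND3 lay between 221 and 598 CPM with a median of 290.1 in the BCB positive class and between 234 and 5755 CPM with a median of 1675 in the BCB negative class. ND4L lay between 153 and 570.3 CPM with a median of 239 in the BCB positive class and between 167 and 4104 CPM with a median of 1296 in the BCB negative class. ND6, the light-strand gene, lay between 249 and 780.0 CPM with a median of 375 in the BCB positive class and between 284 and 5264 CPM with a median of 2574 in the BCB negative class. The classes overlapped for all 7 genes because of complexes 88 and 89. The spread within a class was wide, with an SD between 38.1% and 57.0% of the mean CPM over the BCB positive libraries and between 60.7% and 78.1% over the BCB negative libraries. Together the 7 genes took 0.703% ± 0.314 (SD, n = 9) of the counts in BCB positive and 3.97% ± 2.65 (SD, n = 10) in BCB negative cumulus libraries. In bulk samples of this kind, fewer mitochondria per cell and less RNA per mitochondrion cannot be told apart, and neither can fewer cells of a type and less RNA per cell.

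**Figure D1:**
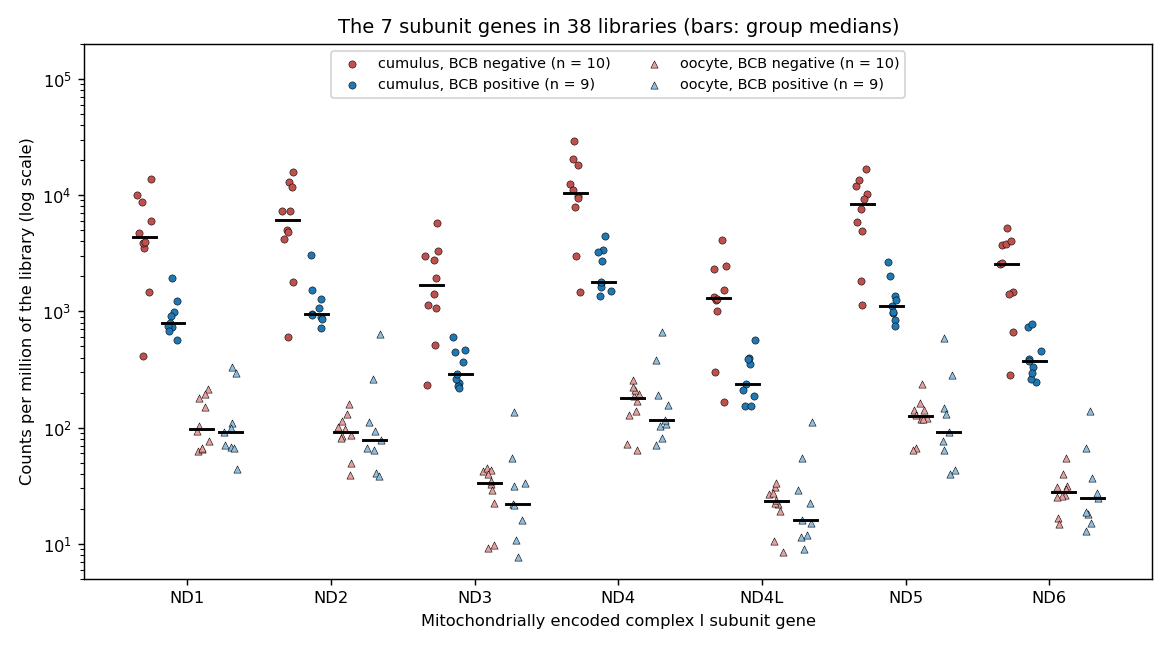
Abundance of each subunit gene in CPM on a log axis, with 1 point per library, circles for cumulus cells, triangles for oocytes, and a bar at each group median. For ND1 the medians are 4349 and 792 CPM in BCB negative and BCB positive cumulus cells and 97.98 and 91.2 CPM in the oocytes of those classes, and for each gene 8 BCB negative cumulus libraries lie above every BCB positive cumulus library.

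The BCB contrast in cumulus cells was tested with edgeR's quasi-likelihood test over 12313 genes, with Benjamini-Hochberg adjustment a false discovery rate (FDR) threshold of 0.01 and TMM factors. All 7 subunits passed as lower in BCB positive complexes, where 0.52% of the genes tested passed in that direction. ND5 had the lowest FDR (log2 fold change -3.34 ± 0.52 (SE), FDR 0.00491) and ND4L the highest (log2 fold change -3.14 ± 0.57 (SE), FDR 0.00734). The light-strand gene ND6 lay within the range of the heavy-strand genes (log2 fold change -3.30 ± 0.54 (SE), FDR 0.00650). ND1 had log2 fold change -3.28 ± 0.57 (SE), FDR 0.00650. ND2 had log2 fold change -3.22 ± 0.57 (SE), FDR 0.00695. Of the others, ND3 fell furthest (log2 fold change -3.37 ± 0.58 (SE), FDR 0.00650) and ND4 least (log2 fold change -3.06 ± 0.54 (SE), FDR 0.00695). The median log2 fold change was -3.28 over the 7 genes and -0.01 over all genes tested. Within complexes 65 to 74 alone the 7 fold changes were larger, from -3.95 to -4.44, and all passed (FDR at most 0.00509). In that fit 0.682% of the genes tested passed, 83 as lower and 1 as higher. With the run of complex numbers in the fit the 7 lay between -3.63 and -4.02 and all passed, where 0.934% of the genes tested passed, 110 as lower and 5 as higher. Scaled to library totals alone, the median of all genes moved to 0.46 on the log2 scale and 1629 genes passed as higher with 103 as lower, against 5 and 64 with TMM. The 7 subunits then lay between -2.35 and -2.64 and still passed, and counted from that median they lay between -2.81 and -3.10.

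In edgeR's quasi-likelihood test these calls lay close to the threshold and were lost with the library total in the fit. With the log10 total in the fit, the 7 log2 fold changes shrank to between -1.03 and -1.39, with FDR between 0.242 and 0.415 in edgeR's test, and 0 of the 7 passed, though all 7 had an unadjusted p under 0.05. Over all genes 2 passed in that fit and 1273 had an unadjusted p under 0.05. Leaving out 1 complex at a time kept the fold changes between -2.66 and -3.57 but raised the FDR to as much as 0.0211. None of the 7 passed without complex 17, 19, 24, 69, 70, 71, 72 or 91, 1 passed without 65, 74 or 86, 4 passed without 6, 5 without 68 and 6 without 66, while all 7 passed without 73, 87, 88, 89 or 90. Over all genes the number of calls ran from 6 without complex 24 to 160 without complex 89, against 69 with all 19 complexes. With DESeq2 over all 19 complexes the 7 passed with FDR from 8.92e-12 to 1.03e-06, where 2.96% of the genes tested passed. DESeq2 was not run with the total in the fit or with a complex left out.

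Subunit abundance and library total moved together in cumulus cells. Over the 19 cumulus libraries, log2 CPM fell with the log10 total for every subunit, with r from -0.88 for ND1 to -0.92 for ND6 and rho from -0.84 to -0.91 (100000 permutations, p = 1e-05 for each r, the smallest these permutations can give, adjusted 2e-05 over 14 relations, with an adjusted permutation p of at most 6e-05 for rho). Leaving out the 2 libraries whose totals lay farthest from the median, r still lay between -0.84 and -0.91. It lay between -0.59 and -0.79 within the BCB positive class, between -0.82 and -0.91 within the BCB negative class, between -0.96 and -0.98 within complexes 65 to 74 and between -0.90 and -0.97 within complexes 86 to 91, all BCB negative. The total is the denominator of CPM, so part of such a relation is built into the measure. The raw counts, an axis chosen after seeing the data, also fell with the total, with smaller r (r from -0.46 for ND1 to -0.61 for ND6, permutation adjusted p 0.0466 to 0.0174; rho from -0.40 to -0.56, permutation adjusted p 0.0906 to 0.0294), with r between -0.43 and -0.61 without the 2 farthest libraries. Within the BCB positive class the raw counts went the other way, with r between 0.23 and 0.54. The raw counts differed between classes by -0.82 for ND4 to -1.14 for ND5 on the log2 scale (two-sided exact permutation test, adjusted p 0.00614 to 0.0275 over 14 values). Within complexes 65 to 74 they differed by -0.66 to -1.02, and 4 of the 7 genes, ND1, ND2, ND4 and ND4L, did not pass there (exact permutation p 0.0714 to 0.0952, unadjusted). ND1 gave 3753 to 8535 raw counts in the BCB positive and 3336 to 21662 in the BCB negative class, and ND6 gave 1636 to 3429 and 2276 to 8919.

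Where the totals of the classes met, the subunit values overlapped. With totals from 3585944 to 4634299 counts there were 3 BCB positive cumulus libraries (complexes 17, 19 and 73) and 3 BCB negative libraries (complexes 87, 88 and 90), a band chosen after seeing the data and compared without a test. ND1 lay at 993 to 1946 CPM in the first and 1460 to 3963 CPM in the second, and ND4 at 2740 to 4479 and 3003 to 9441 CPM. ND6 lay at 456 to 780 and 671 to 1467 CPM. The ranges overlapped for all 7 genes, each time through complex 88. Complexes 87 and 90 lay above the 3 BCB positive libraries of the band for each gene. The median of each gene was higher in the BCB negative libraries of that band. Above it lay 1 BCB negative library, complex 89 with 8013318 counts, in which the 7 genes took 0.431% of the counts, the lowest share of the 19, beside 0.432% to 0.757% in the 6 BCB positive libraries above the band. Whether the total or the BCB class goes with the subunits cannot be told apart over most of the range, since 6 of the 10 BCB negative libraries had totals below every BCB positive library.

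**Figure D2:**
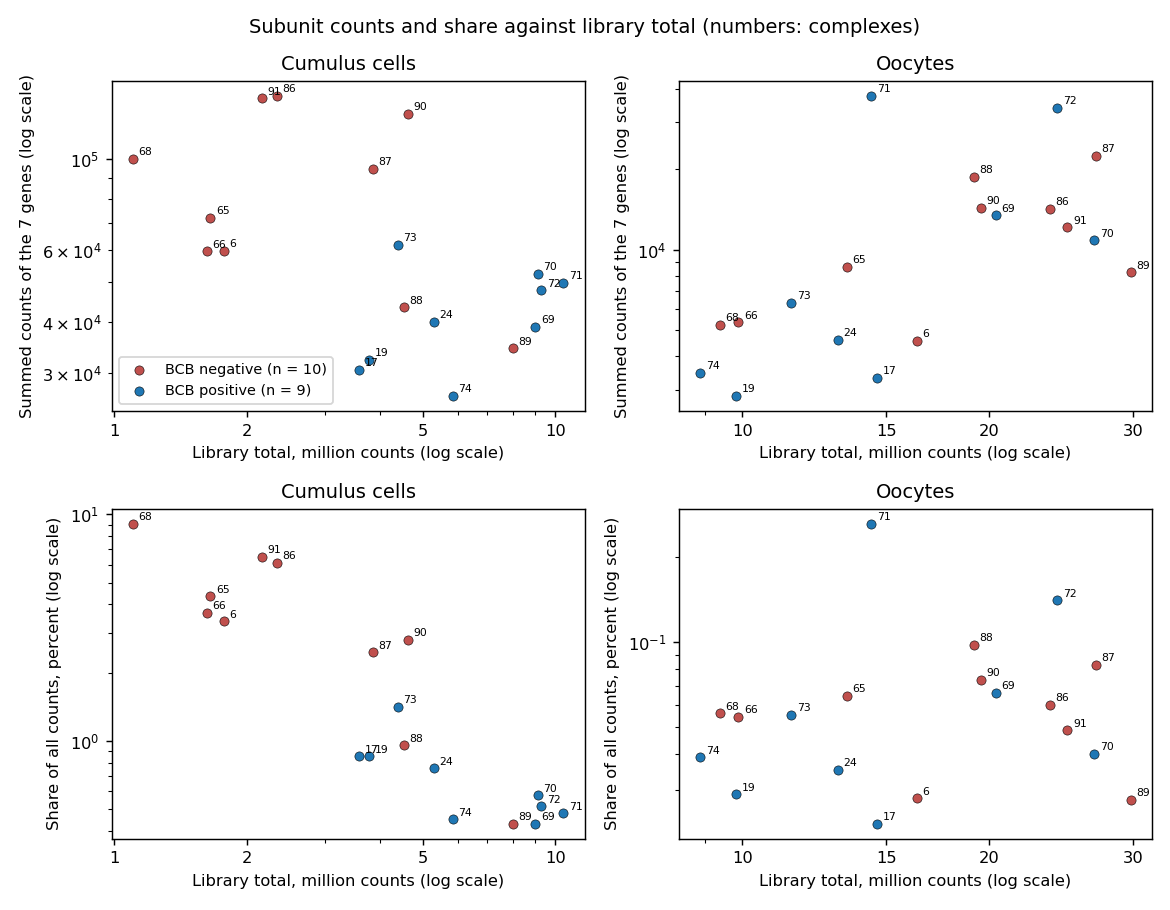
Summed counts of the 7 genes (upper panels) and their share of all counts (lower panels) against the library total, all on log axes, with 1 point per library labelled by its complex number. In cumulus cells the share runs from 0.431% to 9.08% and falls as the total rises, and in oocytes it runs from 0.0228% to 0.261% with complexes 71 and 72 highest.

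In oocytes no subunit passed between BCB classes, and the highest values belonged to 2 BCB positive oocytes. ND1 lay between 44.3 and 335 CPM with a median of 91.2 in the BCB positive class and between 62.5 and 216 CPM with a median of 97.98 in the BCB negative class. The highest value was that of complex 71, and its neighbour in that class was complex 72 at 296 CPM. ND2 lay between 38.3 and 634 CPM with a median of 78.7 in the BCB positive class and between 39.1 and 161 CPM with a median of 91.6 in the BCB negative class, ND4 lay between 70.2 and 669 CPM with a median of 117 in the BCB positive class and between 64.5 and 255 CPM with a median of 179 in the BCB negative class, and ND5 lay between 39.7 and 586 CPM with a median of 91.6 in the BCB positive class and between 64.4 and 239 CPM with a median of 125 in the BCB negative class. ND3 lay between 7.62 and 136 CPM with a median of 21.9 in the BCB positive class and between 9.24 and 44.5 CPM with a median of 33.6 in the BCB negative class, on raw counts as low as 75 in complex 19. ND4L lay between 9.10 and 111 CPM with a median of 16.1 in the BCB positive class and between 8.42 and 33.3 CPM with a median of 23.1 in the BCB negative class. ND6 lay between 12.9 and 140.0 CPM with a median of 24.9 in the BCB positive class and between 14.8 and 54.4 CPM with a median of 28.0 in the BCB negative class. For all 7 genes oocyte 71 was the highest of the 19 oocytes and oocyte 72 came next, while the classes overlapped throughout. The 7 genes took 0.261% of the counts in oocyte 71 (95% Wilson interval 0.259% to 0.264%) and 0.0228% in oocyte 17, the lowest (0.0220% to 0.0235%), intervals that cover counting error only. In oocyte 71 the 8 cumulus markers summed to 47.8 CPM, the 8th highest of 19, and in oocyte 72 to 2363 CPM, the highest, and their part in the subunit values was not tested.

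The 7 log2 fold changes between oocyte classes ran from 0.12 ± 0.37 (SE) for ND1 to 0.71 ± 0.47 (SE) for ND2, with FDR between 0.904 and 0.980. None passed in edgeR's test over 12753 genes, in which 0.0% of all genes passed. None of the 7 had an unadjusted p under 0.05, as 711 of all genes did, and none passed with DESeq2, which called 1 gene in all. Without complex 71 all 7 turned to values between -0.32 and -0.0091, so their direction rested on that oocyte. ND1 alone also turned without complex 72, to -0.12. Within complexes 65 to 74, which hold both of these oocytes, the values lay between 0.25 and 1.16 and did not pass (FDR 0.459 to 0.855). In log2 CPM no relation of an oocyte subunit with the library total passed, with r between 0.06 and 0.21 and rho between 0.05 and 0.24 (permutation adjusted p at least 0.674 and 0.556 over the same 14 relations). Leaving out the 2 oocytes whose totals lay farthest from the median, r lay between 0.14 and 0.31. The sign differed between runs, with r from 0.12 to 0.34 in complexes 65 to 74 and from -0.55 to -0.77 in complexes 86 to 91. Raw oocyte counts rose with the total for all 7 genes, with r between 0.53 and 0.68 (permutation adjusted p 0.0151 to 0.0339), rho between 0.52 and 0.68 (permutation adjusted p 0.0166 to 0.0453) and r between 0.56 and 0.70 without the 2 farthest oocytes, but r between -0.24 and -0.54 in complexes 86 to 91.

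**Figure D3:**
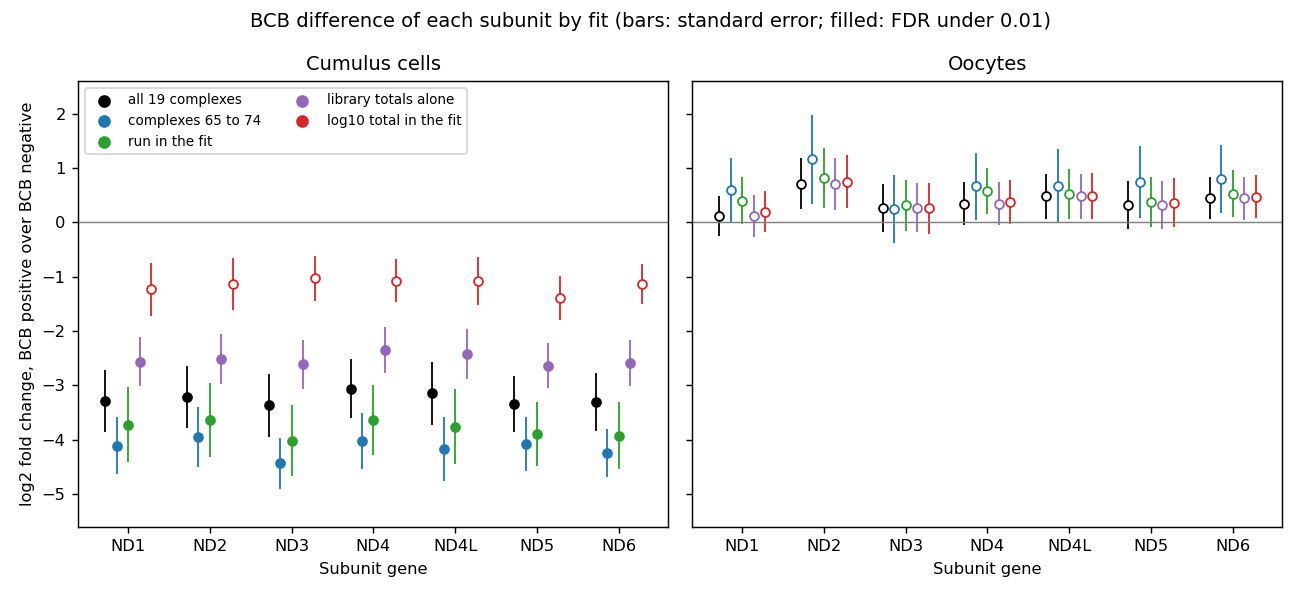
Log2 fold change of each subunit gene, BCB positive over BCB negative, in 5 fits of the cumulus and the oocyte counts, with bars of 1 standard error and filled points where the FDR is under 0.01. In cumulus cells the 7 values lie between -3.06 and -3.37 over all 19 complexes, filled, and between -1.03 and -1.39 with the log10 total in the fit, open, and in oocytes every point is open.

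Each subunit took a far smaller share of the oocyte library than of the library of its own cumulus cells. The cumulus CPM exceeded the CPM of its own oocyte in 19 of 19 complexes for each of the 7 genes. How many of all genes did the same was not counted. For ND1 the cumulus value was a median of 18.0 (range 2.18 to 207) times the oocyte value over complexes. For ND4 it was a median of 33.7 (range 2.41 to 159) times, and for ND6 a median of 35.3 (range 1.78 to 198) times. Complex 71 had the smallest ratio for all 7 genes, between 1.42 and 2.41. The median ratio over complexes was larger around BCB negative oocytes, between 42.7 for ND1 and 103 for ND6 against 11.8 for ND1 and 16.8 for ND3, the lowest and highest among BCB positive complexes. The ranges of the classes overlapped for all 7 genes, at 6.22 to 207 in BCB negative and 2.18 to 27.7 in BCB positive complexes for ND1. This ratio was not tested between classes. The BCB difference between compartments, given below, did not pass with the complex as a block. For 6 of the 7 genes all 19 oocytes lay below all 19 cumulus libraries, which 10.7% of the 10281 genes kept in both compartments also did. ND2 was the exception, since oocyte 71 at 634 CPM exceeded cumulus library 89 at 600.1 CPM.

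The compartment contrast, averaged over the BCB classes, gave log2 fold changes of oocyte over cumulus from -4.83 ± 0.39 (SE) for ND1 to -5.55 ± 0.39 (SE) for ND6. All 7 passed as higher in cumulus cells (FDR at most 4.98e-14, edgeR's quasi-likelihood test), where 42.7% of the genes tested passed in that direction. With the complex as a replicate block they lay between -4.67 and -5.51 and all passed, where 84.9% of the genes tested passed in either direction. Values are shares of each library, 1 oocyte against a group of cells, and not amounts per cell. Scaled to totals alone the values were -4.20 to -4.93, while the median of all genes moved from 0.00 to 0.46.

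The BCB difference of every subunit differed between compartments when the libraries were fitted as independent, and did not pass when the complex was a block. Taken as the oocyte difference minus the cumulus difference, it was between 3.44 ± 0.68 (SE) for ND1 and 3.96 ± 0.74 (SE) for ND2, with FDR from 0.00238 to 0.00453, and 7 of 7 passed where 0.506% of genes passed in that direction. With the complex as a replicate block the 7 values fell to between 2.67 and 2.93, with FDR from 0.124 to 0.168, and 0 passed, although each had an unadjusted p under 0.05. Of the 10281 genes tested 2 passed in that fit and 1178 had an unadjusted p under 0.05. The oocyte and the cumulus cells of a number come from the same complex, so the block follows the design. Without complex 71 or without complex 72, only ND6 passed among the 7 in the fit with no block. Without 91 there were 4 that passed, without 6, 68, 69 or 86 there were 5, and without 24 there were 6, so that 11 of the 19 such fits kept all 7. Over all genes 17 to 69 passed in those fits.

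Between BCB classes the proportions among the 7 genes differed far less than their abundance did. A ratio of counts between 2 genes of a library does not depend on its total, and 21 such ratios were compared on the log2 scale with 0.5 count added to each gene, as in every ratio between genes given here. Between cumulus cells of the BCB classes the 21 differences lay between -0.15 and 0.32, where the fold changes of abundance lay between -3.06 and -3.37. None passed after adjustment over 21 ratios (two-sided exact permutation tests, lowest adjusted p 0.666), and 1 had an unadjusted p under 0.05. That ratio was ND4 to ND5, with medians of 1.84 in BCB positive and 1.51 in BCB negative cumulus cells (difference 0.32, exact permutation p = 0.0403, adjusted 0.666). In oocytes the 21 differences lay between -0.24 and 0.31 and none passed (lowest adjusted p 0.243, exact permutation test). There ND5 to ND6 stood lowest in p, with medians of 3.999 in BCB positive and 4.42 in BCB negative oocytes (difference -0.22, exact permutation p = 0.0116, adjusted 0.243), and without complex 73 it passed with an adjusted p of 0.0197 by the exact permutation test.

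The proportion of the light-strand gene overlapped between classes. In cumulus cells the median ratio of ND1 to ND6 was 2.34 in the BCB positive class, between 1.36 and 2.95, and 2.24 in the BCB negative class, between 1.39 and 2.79. That of ND5, the gene next to ND6 on the other strand, to ND6 was 3.37, between 2.45 and 3.76, and 3.25, between 2.48 and 4.13. The 6 differences of a heavy-strand gene to ND6 between cumulus classes lay between -0.08 and 0.24 on the log2 scale, and the lowest unadjusted exact permutation p was 0.148. ND4 and ND4L, which share a message, varied least against each other: the SD of their log2 ratio was 0.12 over the 19 cumulus libraries and 0.17 over the 19 oocytes, the smallest of the 21 ratios in each compartment. With that addition, counts of ND4 were 7.18 to 10.0 times those of ND4L in cumulus cells and 6.03 to 8.64 times in oocytes. The widest spread was that of ND1 to ND5 in cumulus cells (SD 0.41) and of ND1 to ND3 in oocytes (SD 0.62).

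Between compartments the proportions did differ. Of the 21 ratios, 11 passed when each oocyte was set against its own cumulus cells (two-sided exact sign-flip permutation test over 19 complexes, adjusted over 21 ratios). ND1 was higher in oocytes relative to each of the other 6 genes. The shift was largest against ND6, where the mean log2 ratio was 1.90 ± 0.42 (SD, n = 19) in oocytes and 1.11 ± 0.37 (SD, n = 19) in cumulus cells, a 1.74-fold difference seen in 17 of 19 complexes (exact permutation adjusted p = 0.000481). It was smallest against ND5, a 1.36-fold difference in 15 of 19 complexes (exact permutation adjusted p = 0.0166).

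ND6, with ND4, stood at the other end of the order. Besides ND1, also ND5 (1.28-fold, 18 of 19 complexes, adjusted p = 0.000481), ND4L (1.198-fold, 15 of 19, adjusted p = 0.00267) and ND2 (1.19-fold, 16 of 19, adjusted p = 0.000927) were higher relative to ND6 in oocytes by the same exact permutation test. ND3 and ND4 relative to ND6 did not pass (differences of 0.22 and 0.06 on the log2 scale, exact permutation adjusted p = 0.0789 and 0.417). ND4 relative to ND4L was lower in oocytes, a ratio of 0.871 of the cumulus value in 17 of 19 complexes (exact permutation adjusted p = 0.000828), and so was ND4 relative to ND5, at 0.815 in 16 of 19 (adjusted p = 0.000601). ND4L adjoins ND4 and ND5 adjoins ND6, and the part of reads over these junctions in the ratios was not tested.

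**Figure D4:**
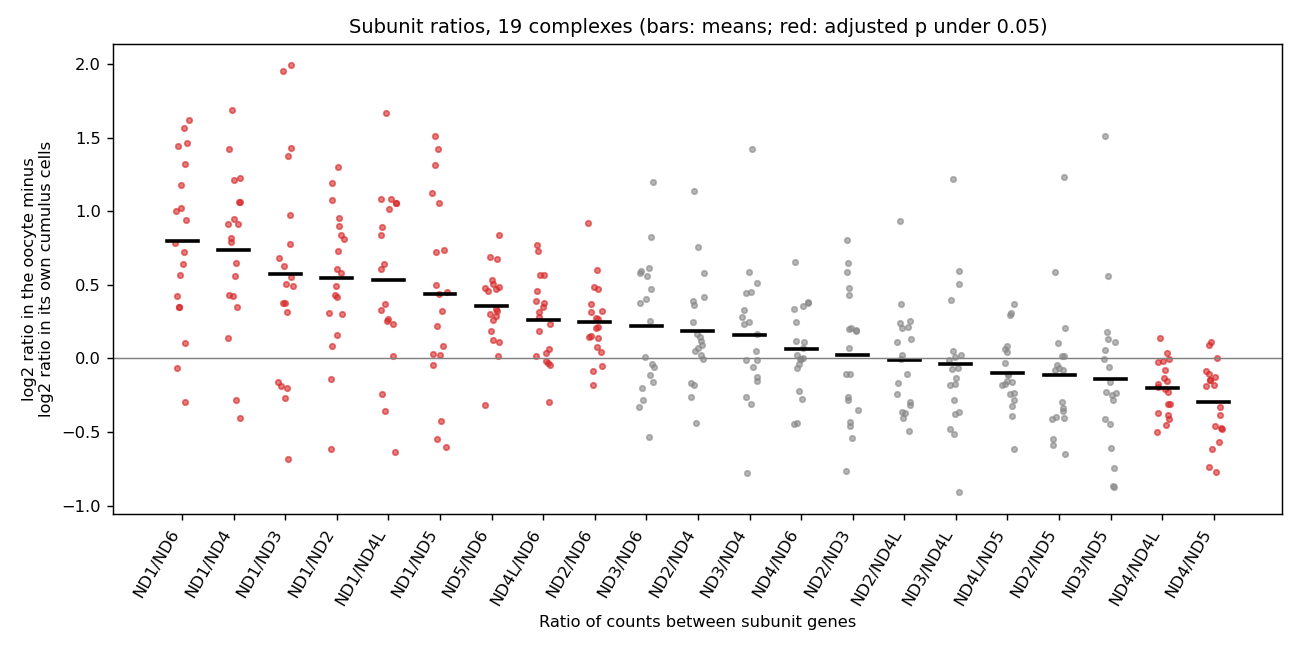
Difference between the log2 count ratio of 2 subunit genes in each oocyte and the same ratio in its own cumulus cells, with 1 point per complex (n = 19), a bar at the mean, and red where the adjusted p is under 0.05. The means run from 0.80 for ND1 to ND6 down to -0.30 for ND4 to ND5, and 11 of the 21 ratios are red.

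No subunit showed a relation between an oocyte and its own cumulus cells that passed. Over 19 complexes, log2 CPM with TMM factors in the oocyte and in its cumulus cells gave r between -0.12 and 0.12 and rho between -0.05 and 0.16 (100000 permutations, adjusted p 0.996 and 0.985 for each of 7 relations). Leaving out the 2 oocytes of most extreme level, r lay between 0.13 and 0.35. Within the BCB positive class r was below 0 for all 7, from -0.28 to -0.54, and within the BCB negative class it lay between -0.12 and 0.45, with no test of either. With counts divided by the TMM factor alone on the inverse hyperbolic sine scale, r within the BCB positive class turned to between 0.38 and 0.56, while r over all 19 lay between 0.12 and 0.33 and did not pass (permutation adjusted p at least 0.494). Within complexes 65 to 74 r lay between -0.34 and 0.05 in log2 CPM and between -0.34 and -0.04 on the inverse hyperbolic sine scale.

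The 7 genes varied together within each compartment. Across libraries the r of log2 CPM between pairs of members had a median of 0.977 in cumulus cells (range 0.965 to 0.998) and 0.938 in oocytes (range 0.794 to 0.984), given as a description, since members of a library share its total. The other 6 protein-coding genes of mitochondrial DNA, which encode subunits of complexes III to V of the respiratory chain, followed the mean of the members with r between 0.968 (CYTB) and 0.992 (ATP6) in cumulus cells and between 0.638 (COX3) and 0.942 (COX2) in oocytes. Outside these 13 genes, the highest r in cumulus cells were those of ENSBTAG00000043567 (0.986, 6319 to 110839 CPM) and ENSBTAG00000043570 (0.982, 16257 to 269096 CPM), which the sources used here pair with no symbol. In oocytes the 4th and 5th highest were DSEL (0.804) and ADPRM (0.803), and the first 3 had no symbol.

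In the cumulus BCB contrast 4 of those other 6 genes passed as lower in BCB positive complexes, COX1, COX2, ATP6 and ATP8. COX1, the catalytic core of cytochrome c oxidase, had log2 fold change -3.05 ± 0.45 (SE), FDR 0.00272, and COX3 and CYTB missed the threshold with FDR 0.0114 and 0.0136. None of the 6 passed with the log10 total in the fit or without complex 24, and 1 passed without complex 17, 19, 65, 69, 70, 71, 72, 74, 86 or 91. The 6 fold changes lay between -2.65 and -3.05, all nearer 0 than those of the 7 subunits, with a median of -2.87 against -3.28. The SEs of the 6 were 0.45 to 0.55, and the difference between the 6 and the 7 was not tested. Within complexes 65 to 74 the ranges overlapped, at -3.73 to -3.99 for the 6 and -3.95 to -4.44 for the 7, and with the log10 total in the fit they were -0.61 to -1.55 and -1.03 to -1.39. The 7 genes made up a median of 41.7% of the counts of the 13 genes in BCB positive and 46.2% in BCB negative cumulus libraries, and 31.1% and 33.4% in oocytes of those classes. Oocyte 71 held the highest share among the oocytes, 52.5%, against 26.6% in the lowest, complex 24.

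The calls of the nuclear partners of the 7 genes in cumulus cells depended on the scaling. Symbols were paired with identifiers only by supplementary tables that favour genes with low p-values, so 11 of 37 nuclear subunits, 7 of 17 assembly factors and 9 of 28 symbols listed for mitochondrial DNA expression could be read. With TMM, 0 of the 11 nuclear subunits passed in either direction in cumulus cells with edgeR or with DESeq2, and 1 had an unadjusted p under 0.05, where 0.0406% of the genes tested passed as higher and 0.52% as lower. Their median log2 fold change was 0.22, with 9 of 11 above 0, against a median of -0.01 over all genes. With library totals alone, chosen after seeing the data, 7 of the 11 passed as higher in BCB positive complexes where 13.2% of all genes did, with a median of 0.71 against 0.46 over all genes. Under TMM the lowest FDR belonged to NDUFS6, an accessory subunit (log2 fold change 0.33 ± 0.15 (SE), FDR 0.234), followed by the accessory subunit NDUFV3 (0.27 ± 0.14, FDR 0.299) and NDUFV1, which binds the flavin that accepts electrons from NADH (0.22 ± 0.13, FDR 0.354).

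None of the 7 assembly factors passed with edgeR or DESeq2 and none had an unadjusted p under 0.05, with TMEM186 (log2 fold change 0.53 ± 0.26 (SE)), ACAD9 (0.40 ± 0.20) and TMEM126B (0.38 ± 0.25) lowest in p (edgeR FDR 0.272 to 0.416). None of the 9 genes of mitochondrial DNA expression passed with either tool, and 1 had an unadjusted p under 0.05. With library totals alone 1 of the 7 and 2 of the 9 passed as higher, where 13.2% of all genes did. The gene with the low p under TMM was TBRG4, a protein that binds mitochondrial messages (log2 fold change 0.62 ± 0.16 (SE), edgeR FDR 0.0373). POLRMT, the mitochondrial RNA polymerase, had 0.43 ± 0.21 (FDR 0.281) and TRMT10C, a subunit of the enzyme that cuts transfer RNAs out of mitochondrial messages, 0.22 ± 0.14 (FDR 0.404). In oocytes none of the 27 genes of these lists passed with either tool, 2 of the assembly factors had an unadjusted p under 0.05, and the medians of the lists lay between 0.09 and 0.10.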

How the data were processed

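The authors made oligo-dT cDNA by template switching, preamplified and tagmented it without strand marks, sequenced pairs of 150 nt reads, aligned them with HISAT2 2.1.0 to ARS-UCD1.2, removed duplicates, and deposited raw counts per Ensembl gene from featureCounts 1.6.0. Removing duplicates can lower the counts of short, abundant genes, which was not tested. Groups and complex numbers come from the labels. The 7 members and the gene lists were chosen with earlier results of these data known.

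From the deposited counts, genes were kept that exceeded 2 CPM in 9 or more of a compartment's 19 libraries, and were tested with edgeR 4.0.16 (TMM factors, quasi-likelihood test, robust, FDR under 0.01) in R 4.3.3, with DESeq2 1.42.0 as an alternative. The study's rule was another, taken as edgeR's likelihood-ratio test without TMM factors and DESeq2 both under the threshold. Joint fits used genes kept in both compartments. SE is the log2 fold change divided by the root of F. On simulated counts 100% of 200 genes changed 4-fold were recovered, with 1 false call among 12313 cumulus genes and 2 among 12753 oocyte genes. This recovery does not describe the power for the 7 members, whose SEs were 0.52 to 0.58 in cumulus cells and 0.37 to 0.47 in oocytes on the log2 scale. Ratios and relations were tested by permutation with Python 3.11.15, numpy 2.4.6 and scipy 1.17.1.

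All 7 members were named, with the other 6 protein-coding genes of mitochondrial DNA, the 3 genes of lowest FDR in each list and, of the 5 genes most like the members in each compartment, those with a symbol and the 2 most alike cumulus genes without. The oocyte and the cumulus cells of a complex share its number. Their deviations from the group means correlated with a median r of 0.0773 (-0.0209 to 0.214), over 0.1 in 5 of 19 complexes, so the pairing comes from the labels. Alternatives comprised scaling, filter, tool, threshold, run, total, block and leaving out each complex. Raw counts without scaling, the band of totals and totals alone for the lists were added after seeing the data.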

Additional observations from a re-analysis of the deposited data

Results flagged for a closer look

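Within groups of 9 or 10 libraries, 140 sets of values (levels in CPM and in log2 CPM, and log2 ratios) were searched for a sample apart from the rest, by the gap to its neighbour over the whole range of its group, against the critical values of 0.493 for 9 and 0.466 for 10 libraries. Chance gives about 1 in 20. No level stood apart in log2 CPM. In CPM, a scale added after seeing the data, 7 levels did, all in BCB positive groups. Oocyte 71 was highest in ND2 (gap of 0.624 of the range), ND3 (0.631), ND4L (0.552), ND5 (0.55) and ND6 (0.578), and cumulus library 73 in ND1 (0.523) and ND2 (0.655). The ratios gave 9. In BCB positive cumulus cells complex 73 was lowest in ND1 to ND2 (gap of 0.682 of the range) and complex 24 lowest in ND1 to ND4 (0.516). In BCB negative cumulus cells complex 6 was lowest in ND4 to ND5 (0.468). In BCB positive oocytes complex 19, with 75 counts of ND3, was lowest in ND3 to ND4 (0.553), ND3 to ND4L (0.522) and ND3 to ND6 (0.546), 3 ratios that share a gene, and complex 24 was highest in ND4L to ND5 (0.512). In BCB negative oocytes complex 68 was lowest in ND2 to ND4L (0.64) and complex 90 highest in ND2 to ND6 (0.554).

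The BCB difference in oocytes minus that in cumulus cells passed for all 7 genes in the fit with no block, at 3.439 for ND1, 3.959 for ND2, 3.668 for ND3, 3.442 for ND4, 3.659 for ND4L, 3.696 for ND5 and 3.775 for ND6 on the log2 scale (edgeR FDR at most 0.00453). Over all genes tested 0.525% passed in that fit. With the complex as a replicate block none of the 7 passed (edgeR FDR at least 0.124), where 2 of 10281 genes passed.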

How the results depend on the processing

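In the cumulus BCB contrast 69 genes passed over all genes, 5 higher and 64 lower. The count was 360 at an FDR of 0.05, 365 with DESeq2, 214 by the study's rule as taken here, 1732 with library totals alone (1629 higher, 103 lower), 164 with no filter, 115 with the run and 2 with the log10 total in the fit, where 0 of the 7 members passed. Leaving out 1 complex gave 6 to 160 genes and 0 to 7 members. With no filter ND4L missed the threshold. With library totals alone 7 nuclear subunits, 1 assembly factor and 2 genes of mitochondrial DNA expression passed. In oocytes DESeq2 called 1 gene. Raw cumulus counts without scaling gave BCB differences of -0.82 to -1.14. Raw oocyte counts without scaling turned the BCB differences to -0.34 (ND1), -0.10 (ND2), -0.35 (ND3), -0.22 (ND4), -0.19 (ND4L), -0.42 (ND5) and -0.20 (ND6), though within complexes 65 to 74 they stayed above 0 (0.53 for ND3 to 1.26 for ND2), and 7 relations of oocyte raw counts with the total passed. Leaving out 1 complex moved the oocyte log2 fold changes between -0.20 and 0.24 (ND1), -0.0091 and 0.83 (ND2), -0.32 and 0.40 (ND3), -0.13 and 0.46 (ND4), -0.081 and 0.60 (ND4L), -0.25 and 0.46 (ND5) and -0.10 and 0.58 (ND6), the lowest each time without complex 71, and ND1 also turned to -0.12 without complex 72. Without complex 73 1 oocyte ratio passed between classes. The compartment contrast called 8792 genes and 18502 with no filter. The interaction called 578 genes with library totals alone, 225 with no filter, 121 with DESeq2, 17 to 69 without 1 complex, with 1 to 7 members, and with the complex as a replicate block 2 genes and 0 members. In the compartment contrast the block gave 8733 genes and kept the calls of the 7 members. The cause of these changes was not tested. The order of the subunits per kilobase was not run, since lengths were not used here. The lowest count behind a value was 75, for ND3 in oocyte 19.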
